A study of Mus musculus with 14 samples.

Results

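Interferon-stimulated genes are the genes that cells switch on when they sense interferon, and 38 of them were followed here in mouse livers that had lost Mettl3 in hepatocytes. The members were taken by gene symbol from a list of 38 names, which was chosen with earlier results of these data known. It spans the Ifit, Isg15, Oas, Mx, guanylate-binding and immunity-related GTPase, Isg12 and Parp families and their transcription factors. All 38 were found among the 54446 genes of the deposited table, and 38 of 38 passed the filter on low values, which required 6 or more libraries with a value of 10 or higher and left 23554 genes for testing. The question was whether these genes responded broadly to the loss of Mettl3 or whether a few of them did.

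The knockouts were 8 libraries from C57BL/6 mice with a floxed Mettl3 gene and Alb-Cre. The controls were 6 libraries from C57BL/6 mice with the floxed Mettl3 gene and no Cre on their labels. All mice were 5 weeks old, and total RNA was sequenced from whole liver that had been flash frozen. Mettl3 is the catalytic subunit of the enzyme that writes the m6A mark on mRNA. Alb-Cre is driven by the albumin promoter, which is active in hepatocytes, so the endothelial cells, Kupffer cells, stellate cells and lymphocytes of these livers keep the gene. The values are bulk measurements, in which fewer cells of a type and less RNA per cell cannot be told apart.

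Interferons are secreted proteins that bind receptors on the cell surface. Type I and type III interferons activate the kinases Jak1 and Tyk2, which phosphorylate Stat2, and this joins Irf9 in a complex that binds the interferon-stimulated response element in the promoters of most of the genes described here. Interferon gamma acts through the gamma-activated site and is the stronger inducer of Irf1 and of the GTPase genes. The products of the genes bind viral RNA, degrade it, block viral entry or release, or regulate the response itself.

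The promoters of a few members are shown because they hold, or lack, the letters of the response element. The sequences are the 250 bases before the RefSeq transcript start in GRCm38.p6, written 5′ to 3′ on the strand of the gene, with capitals on each match to the core of the response element, searched as GAAA, any pair of bases and GAAA again, or the reverse complement of this. Oasl1 (chr5:114922990-114923239 on the plus strand), Isg15 (chr4:156200819-156201068 on the minus strand), Irgm1 (chr11:48871421-48871670 on the minus strand) and Ifi47 (chr11:49076337-49076586 on the plus strand) were members with higher RNA in the knockouts, and Ifit1 (chr19:34640639-34640888 on the plus strand) is a textbook target of the response element whose change did not pass the test.
Oasl1: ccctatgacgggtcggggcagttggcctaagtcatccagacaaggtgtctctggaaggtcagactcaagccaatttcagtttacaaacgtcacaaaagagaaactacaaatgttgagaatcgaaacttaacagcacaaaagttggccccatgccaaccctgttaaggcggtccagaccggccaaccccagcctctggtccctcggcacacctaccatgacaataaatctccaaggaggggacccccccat
Isg15: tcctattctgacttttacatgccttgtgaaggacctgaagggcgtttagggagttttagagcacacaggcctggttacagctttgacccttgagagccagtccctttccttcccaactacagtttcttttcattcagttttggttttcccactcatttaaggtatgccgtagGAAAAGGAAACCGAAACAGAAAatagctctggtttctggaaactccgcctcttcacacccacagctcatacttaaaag
Irgm1: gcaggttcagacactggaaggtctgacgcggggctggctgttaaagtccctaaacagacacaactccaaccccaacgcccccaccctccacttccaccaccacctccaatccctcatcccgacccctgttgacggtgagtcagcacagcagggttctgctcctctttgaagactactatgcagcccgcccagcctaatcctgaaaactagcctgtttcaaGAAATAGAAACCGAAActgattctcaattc
Ifi47: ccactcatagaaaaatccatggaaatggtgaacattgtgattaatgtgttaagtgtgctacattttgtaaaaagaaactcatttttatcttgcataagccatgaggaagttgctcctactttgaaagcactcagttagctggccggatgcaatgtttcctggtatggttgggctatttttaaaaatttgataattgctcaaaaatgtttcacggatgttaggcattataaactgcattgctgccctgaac
Ifit1: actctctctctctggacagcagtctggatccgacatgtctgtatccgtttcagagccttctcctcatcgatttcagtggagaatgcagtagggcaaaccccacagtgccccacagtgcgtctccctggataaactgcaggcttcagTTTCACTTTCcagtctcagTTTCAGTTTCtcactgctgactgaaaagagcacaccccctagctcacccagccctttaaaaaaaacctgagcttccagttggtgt

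Isg15 held 3 overlapping matches, which ended 68, 62 and 56 bases before the start. Irgm1 held 2 overlapping matches that ended 20 and 14 bases before it, and Ifit1 held 2 separate ones that ended 94 and 75 bases before it. Oasl1 and Ifi47 held none in this window. RefSeq promoters were matched by symbol for 28 of the 38 members, and Usp18, Oas1b, Oas2, Mx1, Mx2, Ifi27, Ifi27l2a, Ifi27l2b, Parp9 and Parp14 were not among them. In windows of 300 bases (250 before the start and 50 after), searched on both strands, 15 of the 28 members (53.6%) held the core of the response element, against 3.99% of all 27025 genes with a window. The gamma-activated site, searched as TTCNNNGAA, was held by 9 of the 28 members (32.1%), against 9.55% of all genes. Of the members called higher with a window, 2 of 5 held the core of the response element, and of the members not called, 12 of 22 did.

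Values are the authors' normalised estimated counts per gene. They were not divided by gene length, so levels are compared between groups and not between genes. Sequencing depth was 11.1 to 30.9 M (megareads, estimated) in knockouts and 13.7 to 33.8 M in controls. Mettl3 was at 76.9, 99.1 and 122 (lowest, median and highest) in the 8 knockouts and at 199, 219 and 263 in the 6 controls. The groups did not overlap, and the log2 change (knockout minus control, on the log2(value + 1) scale) was -1.17 with an SE of 0.12 (limma, adjusted p = 1.32e-05).

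The labels gave no sex, but replicates 1 to 4 of both groups expressed Y-linked genes (Y-positive libraries, Xist values 29.6 to 60.3), and knockouts 5 to 8 and controls 5 and 6 had Xist values of 6565 to 11123 (Xist-high libraries). The class cannot be told apart from depth, which averaged 29.2 M estimated reads in the 8 Y-positive and 13.9 M in the 6 Xist-high libraries. On the first principal component (31.3% of the variance) the 8 knockouts, at -10.7 to 99.7, lay above the 6 controls, at -70.3 to -25.8. Knockouts 3, 6 and 7 were furthest from the controls, at 61.5, 99.7 and 96.3. Leaving them out therefore removes the knockouts that differed most from the controls on this component. Knockouts 6 and 7 also had 7.85% and 7.91% of their values in mitochondrially encoded genes, against 2.77% to 5.47% in the other 12 libraries. Results are therefore also given within the sex classes and without knockouts 3, 6 and 7. P-values measure the spread between these libraries, since the labels do not describe how the replicates were taken.

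The test called 9 of the 38 members, with 7 higher and 2 lower in the knockouts. That was 23.7% of the members, against 22.4% of the 23554 genes tested. Seen by direction, 18.4% of the members were called higher, against 11.5% of all genes, and 5.26% were called lower, against 11.0% of all genes. The genes called higher were Ifi27l2b, Oasl1, Ifi47, Isg15, Usp18, Samd9l and Irgm1. The genes called lower were Gbp7 and Ifi27. The members' median log2 change was 0.16, beside 0.05 for all genes tested, and 24 of the 38 changes were above 0.

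Changes passed 1 on the log2 scale in a pair of members. Ifi27l2b had a log2 change of 3.79 and Oasl1 one of 2.30, and the other 5 genes called higher lay between 0.76 and 0.98. The 29 members that were not called had log2 changes of -0.57 to 0.59 with a median of 0.06, and 17 of them were above 0. The SE of a member's log2 change ran from 0.11 to 0.40 with a median of 0.23, so a change of the size seen in Isg15 could be missed in the least precise members. An unadjusted p of at most 0.05 was reached by 15 of the 38 members. The share of all genes that reached it was not computed, so this count does not set the members apart. The knockout and control values did not overlap, with the knockouts higher, for Ifi27l2b, Oasl1, Isg15 and Irgm1. These 4 were 10.5% of the members, against 4.14% of all genes, and no member had all knockouts below all controls, which 4.02% of all genes had.

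**Figure D1:**
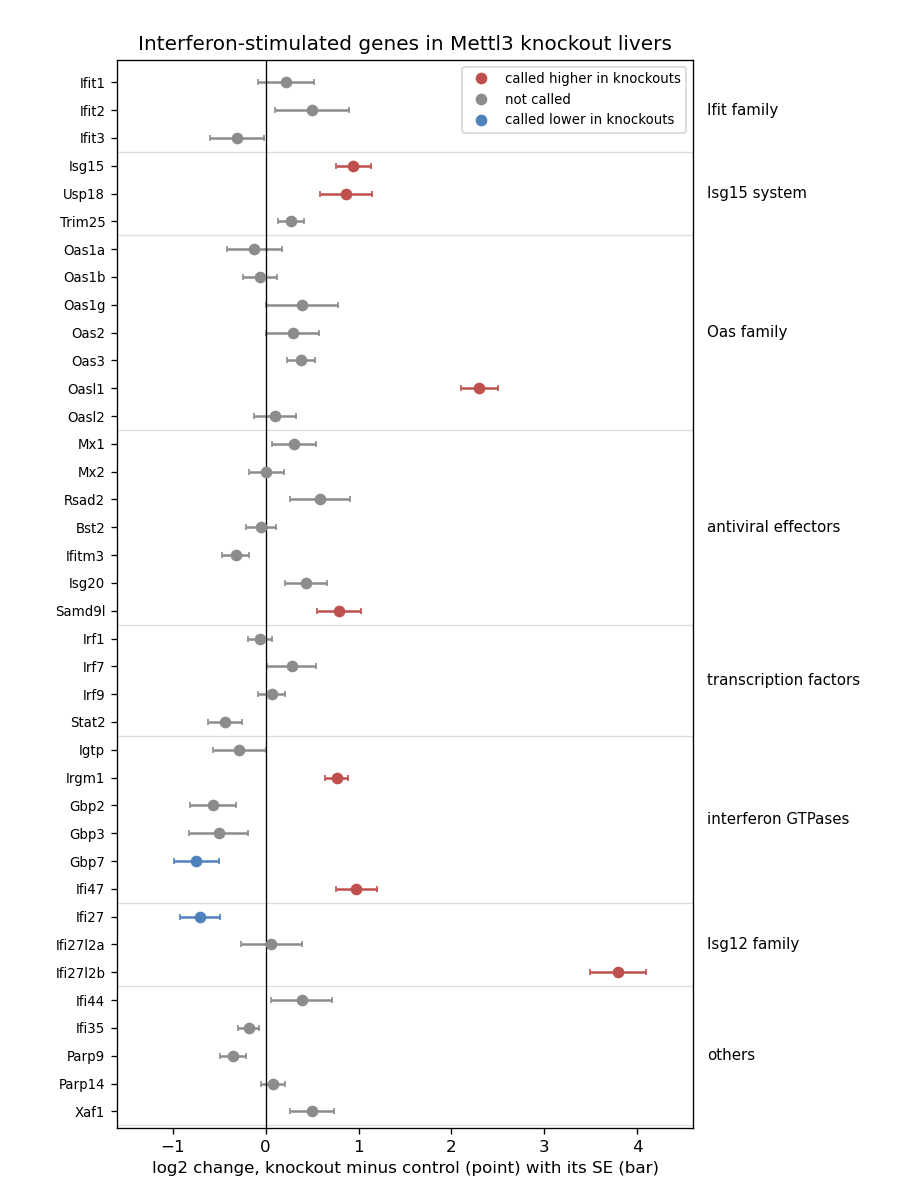
Log2 change (knockout minus control, horizontal axis) of each of the 38 members, grouped by role from top to bottom, with points for the limma estimate (8 knockouts, 6 controls) and bars for its SE. Ifi27l2b at 3.79 and Oasl1 at 2.30 lie far to the right, while the 29 members in grey, which were not called, lie between -0.57 and 0.59.

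Ifit1, Ifit2 and Ifit3 encode proteins that bind foreign RNA and hold back its translation, and none of the 3 was called. Ifit1 had values of 114, 278 and 460.5 (lowest, median, highest) in knockouts and 151, 212 and 279.9 in controls. Knockouts 1, 3, 5 and 6 were above every control and knockouts 2 and 4 were below every control, so the groups overlapped on both sides. The log2 change of Ifit1 was 0.22 with an SE of 0.30 (limma, adjusted p = 0.648). Ifit2 ranged from 56.6 to 421 in knockouts and from 74.4 to 136 in controls, with a log2 change of 0.50 (SE 0.40, adjusted p = 0.401). Ifit3 had a mean of 314 ± 145 in knockouts and 360.5 ± 86.6 in controls (SD, n = 8 and 6), with a log2 change of -0.31 and an adjusted p of 0.478. Without knockouts 3, 6 and 7 the estimate for Ifit2 was -0.17, below 0.

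Isg15 is a small ubiquitin-like protein that is attached to other proteins, Usp18 removes it and restrains the type I interferon receptor, and Trim25 is a ubiquitin ligase that activates the RNA sensor RIG-I. Isg15 and Usp18 rose in the knockouts and Trim25 was not called. Isg15 (chr4:156199424-156200818) had values of 393, 486 and 743 in knockouts and 195, 285 and 379 in controls. Every knockout was above every control, and the log2 change was 0.94 with an SE of 0.19, a 1.92-fold difference (limma, adjusted p = 0.00251). Usp18 (chr6:121245906-121270917) had values of 90.5, 251 and 337 in knockouts and 78.9, 114 and 150.4 in controls. Knockouts 1, 3, 5, 6 and 7 were above every control, while knockouts 2, 4 and 8 lay within the controls' range. Its log2 change was 0.86 with an SE of 0.28 (adjusted p = 0.0344). This call did not hold when any of 8 single libraries was left out: the adjusted p of Usp18 was 0.0601 without knockout 1, 0.0653 without knockout 3, 0.0525 without knockout 5, 0.0591 without knockout 6, 0.0580 without knockout 7, 0.0780 without control 2, 0.0717 without control 3 and 0.0691 without control 4. Trim25 averaged 4377 ± 930.4 in knockouts and 3569.7 ± 462 in controls (SD), with a log2 change of 0.28 (adjusted p = 0.185). The enzymes that charge and attach Isg15 outside the members, Uba7, Ube2l6 and Herc6, gave 0 calls of 3, and Ube2l6, the conjugating enzyme, had a log2 change of -0.28 (adjusted p = 0.195).

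Of the 7 members of the Oas family, 1 rose in the knockouts and 6 were not called. Oas1a, Oas1g, Oas2 and Oas3 make short oligoadenylates that activate the nuclease RNase L when they meet double-stranded RNA. Oasl1 is a relative without that activity, which in mice is known to hold back translation of Irf7 mRNA. Oasl1 (chr5:114923240-114937915) had values of 375, 631 and 811 in knockouts and 79.4, 128 and 162 in controls. The lowest knockout was above the highest control, and the mean was 613 ± 155 in knockouts and 124 ± 32.8 in controls (SD, n = 8 and 6). The log2 change of Oasl1 was 2.30 with an SE of 0.20, a 4.93-fold difference (limma, adjusted p = 3.29e-06). Its neighbour and relative Oasl2 averaged 102 ± 39.1 in knockouts and 89.5 ± 10.2 in controls, with a log2 change of 0.10 (adjusted p = 0.79). On its other side 2210016L21Rik fell in the knockouts, with a log2 change of -1.22 (adjusted p = 4.87e-05).

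Oas2 had values of 27.1, 63.3 and 115 in knockouts and 35.0, 43.9 and 74.0 in controls, and the groups overlapped (log2 change 0.29, SE 0.28, limma adjusted p = 0.502). Oas3 came nearest to a call in the rest of the family. It averaged 54.9 ± 11.3 in knockouts and 41.5 ± 4.49 in controls, 6 of 8 knockouts were above every control, and its log2 change was 0.38 (adjusted p = 0.0818). Oas3 passed when knockout 7, its lowest knockout, was left out, with an adjusted p of 0.0447. Oas1g ranged from 20.8 to 117 in knockouts and from 16.5 to 80.3 in controls (log2 change 0.39, adjusted p = 0.512). Oas1a and Oas1b had log2 changes of -0.12 (adjusted p = 0.811) and -0.06 (adjusted p = 0.847). Oas1b, whose allele in C57BL/6 mice encodes a truncated protein, had means of 38.6 ± 8.54 in knockouts and 40.3 ± 9.43 in controls. The Oas1 genes are close copies in 1 cluster on chr5, and the estimated counts could split reads between them, so the values of single Oas1 genes are uncertain.

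Among the 7 antiviral effectors Samd9l rose and 6 were not called. Samd9l (chr6:3372257-3399572), which restricts poxviruses and cell growth, had values of 263, 398 and 719.9 in knockouts and 167, 198 and 386 in controls. Knockouts 1, 3, 6 and 7 were above every control, and the 2 highest controls, 5 and 6, were the Xist-high ones. The log2 change was 0.79 with an SE of 0.24 (limma, adjusted p = 0.0264). Leaving out 1 control was enough to lose the call of Samd9l, with adjusted p-values of 0.0536 without control 1, 0.0616 without control 2, 0.0606 without control 3 and 0.0670 without control 4. In Xist-high libraries alone its log2 change was 0.13, against 1.12 in Y-positive libraries.

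Rsad2, or viperin, which makes a nucleotide that stops viral RNA synthesis, had values of 177, 326 and 745 in knockouts and 140.5, 248 and 334 in controls. Knockouts 3, 5, 6 and 7 were above every control and the other 4 lay within the controls' range. The log2 change of Rsad2 was 0.59 with an SE of 0.32 (limma, adjusted p = 0.215), and without knockouts 3, 6 and 7 it was 0.07. Isg20, an exonuclease that degrades viral RNA, averaged 78.5 ± 22.9 in knockouts and 57.1 ± 16.3 in controls (log2 change 0.44, adjusted p = 0.179).

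Mx1 and Mx2 encode dynamin-like GTPases that trap viral components, and the Mx1 allele of C57BL/6 mice is known to make no functional protein. The gene annotation lists Mx2 as a polymorphic pseudogene, so its RNA may not encode a working protein either. Mx1 had values of 14.7, 33.5 and 45.9 in knockouts and 17.4, 22.5 and 37.3 in controls, with overlapping groups (log2 change 0.31, SE 0.24, limma adjusted p = 0.39). Mx2 averaged 168 ± 53.4 in knockouts and 162 ± 27.7 in controls, a log2 change of 0.01 (adjusted p = 0.987). Ifitm3, which blocks the fusion of viruses with the endosome, had values of 2638, 3239.6 and 4776 in knockouts and 3629, 4221 and 5330.0 in controls. Ifitm3 had 5 knockouts below every control and a log2 change of -0.32 with an SE of 0.15 (adjusted p = 0.123), and its adjusted p was 0.0488 when knockout 1, the highest knockout, was left out. Bst2, or tetherin, which holds budding viruses on the cell surface, averaged 1388 ± 315 in knockouts and 1423 ± 295 in controls (log2 change -0.05, adjusted p = 0.87).

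None of the 4 transcription factors that carry the interferon signal was called. Irf7, which amplifies the type I response, had values of 436, 657 and 1301 in knockouts and 410.3, 555 and 938 in controls. Knockouts 1 and 3 were above every control, and the log2 change of Irf7 was 0.28 with an SE of 0.27 (limma, adjusted p = 0.484). Irf9, the DNA-binding partner of Stat2, had values of 601, 814 and 1144 in knockouts and 736, 776 and 837 in controls. Irf9 was tightly grouped in controls, with 4 knockouts above all of them and 4 below all of them, and its log2 change was 0.06 (SE 0.15, adjusted p = 0.799). Stat2 had values of 379, 594 and 971 in knockouts and 665, 836 and 905 in controls. Stat2 lay below every control in 5 knockouts, with a log2 change of -0.43 and an SE of 0.18 (adjusted p = 0.105), and passed without knockout 5, its highest knockout (adjusted p = 0.0297). Irf1, a factor that answers mainly to interferon gamma, had values of 426, 481 and 566 in knockouts and 358, 484 and 667 in controls, so all knockouts lay within the controls' range (log2 change -0.06, SE 0.13, adjusted p = 0.792).

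The 6 interferon-induced GTPases split, with 2 higher, 1 lower and 3 not called. Irgm1, Ifi47 and Igtp belong to the immunity-related GTPases, which act on the membranes around intracellular parasites and bacteria, and Irgm1 and Igtp are regulators that restrain the other GTPases of the family. Irgm1 (chr11:48861968-48871683) had values of 1283, 1441 and 2084 in knockouts and 788, 896 and 1033 in controls. All knockouts were above all controls, and the log2 change was 0.76 with an SE of 0.12, a 1.70-fold difference (limma, adjusted p = 0.00048). Ifi47 (chr11:49076587-49096974) had values of 292, 494 and 846 in knockouts and 197, 249.6 and 357 in controls. Its values in 7 of 8 knockouts were above every control, with knockout 6 inside their range, and the log2 change of Ifi47 was 0.98 with an SE of 0.22 (adjusted p = 0.00587). Ifi47 overlaps Olfr56 on the same strand, a gene with mean values of 30.5 in knockouts and 21.4 in controls, so a share of reads may be assigned to either.

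Igtp had values of 357, 599 and 1401 in knockouts and 571, 868 and 1297 in controls. Knockouts 1 and 5 were above every control and knockouts 3, 4 and 6 were below every control (log2 change -0.28, SE 0.28, limma adjusted p = 0.513). Gbp2, Gbp3 and Gbp7 encode guanylate-binding proteins, larger GTPases that coat and rupture pathogen vacuoles. Gbp7 (chr3:142530342-142550149) had values of 144, 228 and 532 in knockouts and 334, 381 and 512 in controls. Of its 8 knockouts 7 were below every control, while knockout 5 was above every control. The log2 change of Gbp7 was -0.75 with an SE of 0.24 (adjusted p = 0.0364). Gbp2 had values of 53.3, 83.1 and 149.7 in knockouts and 89.5, 131 and 199 in controls, with a log2 change of -0.57 and an SE of 0.24 (adjusted p = 0.11). Gbp3 averaged 82.3 ± 39.2 in knockouts and 110.3 ± 39.6 in controls, with a log2 change of -0.51 (adjusted p = 0.282). The 3 genes are related and lie close together on chr3, so reads could be split between them. The call of Gbp7 was lost in 9 of the 14 analyses that left out a single library, with adjusted p-values of 0.0637 without knockout 2, 0.0591 without knockout 4, 0.0591 without knockout 6, 0.0537 without knockout 7, 0.0564 without knockout 8, 0.0555 without control 3, 0.0607 without control 4, 0.0800 without control 5 and 0.0790 without control 6. Gbp2 passed without knockout 5, with an adjusted p of 0.0459.

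The Isg12 family held the largest change of all members and a change the other way in another of its 3 genes. These genes encode small hydrophobic proteins of the mitochondrial and nuclear membranes. Ifi27 (chr12:103434211-103440239, plus strand), Ifi27l2a (chr12:103442167-103443680, minus strand) and Ifi27l2b (chr12:103450898-103457223, minus strand) lie side by side. Ifi27l2b had values of 457, 885 and 1639 in knockouts and 29.3, 67.8 and 111 in controls. Its lowest knockout was far above its highest control, the mean was 960.0 ± 349 in knockouts and 71.1 ± 32.2 in controls (SD, n = 8 and 6), and the log2 change was 3.79 with an SE of 0.30, a 13.8-fold difference (limma, adjusted p = 1.59e-06). Ifi27 had values of 442, 673 and 1106 in knockouts and 883, 1086 and 2050.5 in controls. In 6 knockouts Ifi27 was below every control, and in all 8 it was below the control mean. The log2 change of Ifi27 was -0.71 with an SE of 0.21 (adjusted p = 0.0259), and without control 1, the highest library, it was -0.54 with an adjusted p of 0.0586. Ifi27l2a, between the other two, had values of 26.3, 84.7 and 209 in knockouts and 56.2, 77.3 and 95.2 in controls, with a log2 change of 0.06 (SE 0.33, adjusted p = 0.915). Outside the cluster Ddx24 had a log2 change of 0.35 that was not called (adjusted p = 0.137), and Ppp4r4 fell by 0.41 on the log2 scale (adjusted p = 0.00816). The 3 family members share sequence, and how the estimated counts split reads between them was not tested.

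The remaining 5 members were not called. Xaf1, which antagonises an inhibitor of apoptosis, averaged 132 ± 47.3 in knockouts and 87.7 ± 14.1 in controls. Xaf1 was above every control in 6 of 8 knockouts (log2 change 0.50, limma adjusted p = 0.141), and it passed without knockout 4, its lowest knockout (adjusted p = 0.0291). Parp9, which works with a ubiquitin ligase in DNA repair and the antiviral response, averaged 249 ± 54.2 in knockouts and 313 ± 30.8 in controls. Parp9 had 6 knockouts below every control and a log2 change of -0.35 (adjusted p = 0.0764), and it passed without knockout 1, its highest knockout (adjusted p = 0.0246). Parp14, an ADP-ribosyltransferase, had means of 656 ± 133 in knockouts and 611 ± 60.4 in controls (log2 change 0.08, adjusted p = 0.691). Ifi35 and Ifi44 had log2 changes of -0.18 (adjusted p = 0.265) and 0.39 (adjusted p = 0.436).

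**Figure D2:**
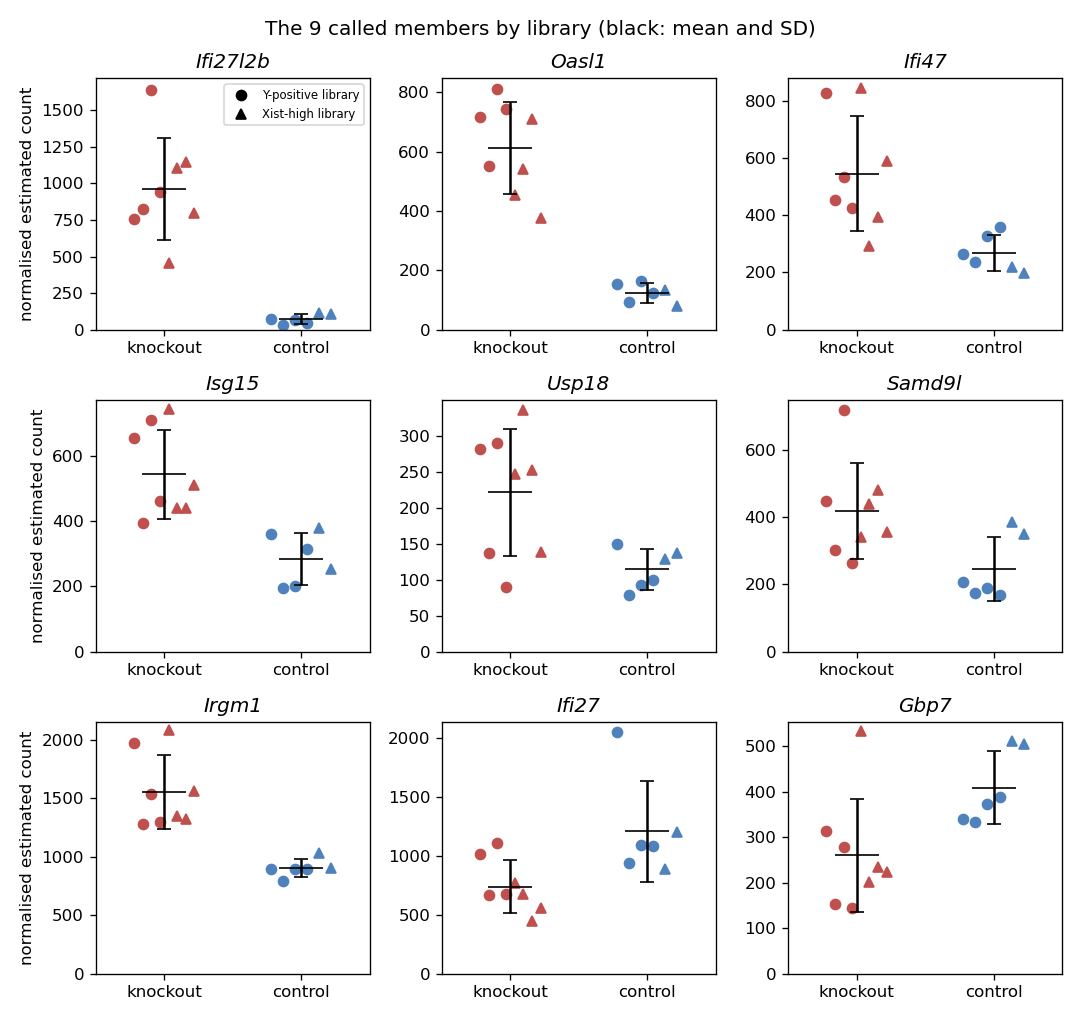
Normalised estimated count (vertical axis) of the 9 called members in the 8 knockouts (red, left) and 6 controls (blue, right) of each panel, with circles for Y-positive and triangles for Xist-high libraries and a black bar for mean and SD. The groups are apart for Ifi27l2b, Oasl1, Isg15 and Irgm1 and overlap in the other 5.

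The called members differed in how firmly they passed. Isg15, Oasl1, Irgm1, Ifi47 and Ifi27l2b kept their calls in each of the 14 analyses that left out a single library. These 5 were also the members called higher at an adjusted p of at most 0.01. At that threshold 1311 of the 23554 genes tested were called higher, and 11.3% were called in either direction. Without knockouts 3, 6 and 7 together, limma called 5 members higher and 1 lower, against 9.19% of all genes higher and 9.24% lower. Usp18 (adjusted p = 0.19) and Samd9l (adjusted p = 0.129) were no longer called then, Gbp7 had an adjusted p of 0.10, and Ifi27 was the 1 called lower (adjusted p = 0.0358). In the authors' deposited table, 7 members were higher and 2 lower at a q-value of at most 0.05, where 8.82% of the 27865 genes with a deposited test were higher and 8.26% lower.

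**Figure D3:**
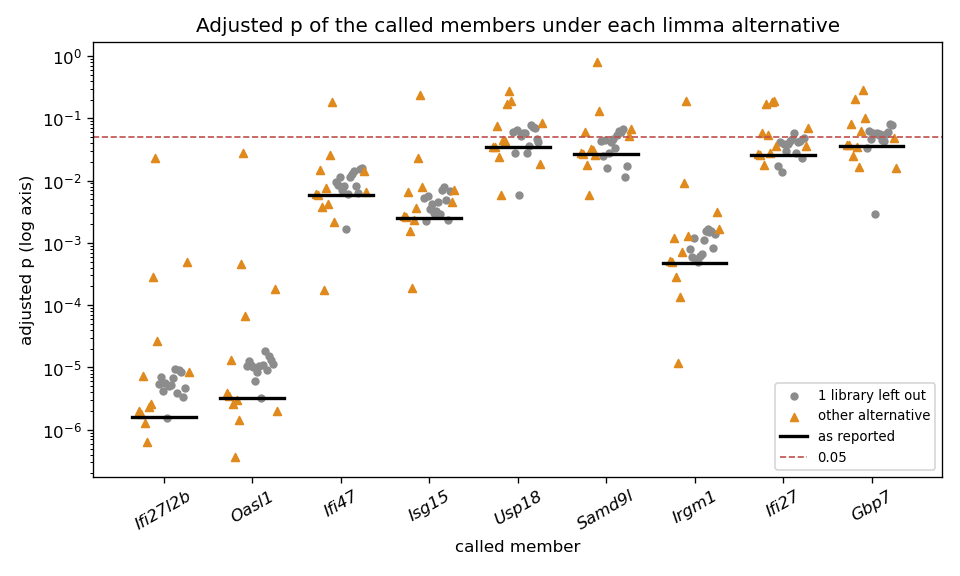
Adjusted p (vertical log axis) of the 9 called members as reported (black bar), with each single library left out (grey circles) and under the other limma alternatives (orange triangles). Ifi27l2b and Oasl1 stay below the dashed line at 0.05 in every point. Usp18, Samd9l, Ifi27 and Gbp7 cross it under several alternatives, and Isg15, Irgm1 and Ifi47 cross it in Xist-high libraries alone.

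Within the Y-positive libraries (4 knockouts, 4 controls) limma called 6 members higher and 0 lower, against 7.39% of all genes higher and 8.3% lower. Those 6 were Samd9l and the 5 members that kept their calls without any single library. In the Xist-high libraries (4 knockouts, 2 controls) it called 2 higher and 0 lower, against 0.73% of all genes higher and 0.2% lower. The 2 were Ifi27l2b, with log2 changes of 2.92 in Xist-high and 4.29 in Y-positive libraries, and Oasl1, with 2.28 in Xist-high and 2.43 in Y-positive libraries. Isg15, Irgm1 and Ifi47 had log2 changes of 0.74, 0.68 and 1.23 in Xist-high libraries, with adjusted p-values of 0.234, 0.192 and 0.183. All 9 called members changed in the same direction in both classes, and 31 of the 38 members did. The 9 were called on the libraries of both classes together, so their agreement was partly built in. The share of all genes with the same direction in both classes was not computed. A test of the difference between the classes found an adjusted p of at most 0.05 for 0 of the 38 members (limma interaction, lowest adjusted p 0.813, 2 members at an unadjusted p of at most 0.05), against 0.0552% of all genes.

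The scale on which the libraries were compared mattered for the number of calls. The sums of the deposited values were 16.8 to 20.7 M in knockouts and 21.5 to 27.6 M in controls. Setting the sums outside ribosomal RNA equal moved the median log2 change of all genes by 0.33, so that 90.0% of the called genes were higher, against 51.1% as reported. Under that scaling limma called 13 members higher and 0 lower, beside 33.3% of all genes higher and 3.68% lower. The 13 were the 7 members above together with Trim25, Oas3, Rsad2, Isg20, Parp14 and Xaf1. Relative to the shift of 0.33, Ifi27l2b (log2 change 4.12) and Oasl1 (2.64) stayed furthest from the other members, and Gbp7 (-0.41) and Ifi27 (-0.37) were lower without a call.

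The knockouts differed among themselves more than the controls did. The coefficient of variation of a member had a median of 35.1% in knockouts and 23.5% in controls, and it was larger in knockouts for 31 of the 38 members. Over all genes tested the medians were 27.9% in knockouts and 21.8% in controls, and 64.7% of genes varied more in knockouts. Knockout 3 had 24 of the 38 members above the highest control, followed by knockout 5 with 19 and knockouts 1 and 6 with 18 each. In knockout 4 only 5 members were above the highest control and 19 were below the lowest, and in knockout 2 the numbers were 6 above and 18 below. As shares of the members, those above the highest control were 63.2% in knockout 3, 50.0% in knockout 5 and 47.4% in knockouts 1 and 6, and over all genes tested the shares were 28.9% in knockout 3, 23.6% in knockout 5, 21.98% in knockout 1 and 31.0% in knockout 6. In knockouts 4 and 2 the members above the highest control were 13.2% and 15.8%, against 23.4% and 26.3% of all genes. The members below the lowest control were 50.0% in knockout 4 and 47.4% in knockout 2, against 22.6% and 24.0% of all genes.

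The same libraries were at the ends for many members. Knockout 3 had the highest value among knockouts for 17 members and knockout 5 for 12, while knockout 2 had the lowest for 16 and knockout 4 for 12. The shares of all genes with these libraries at the ends were not computed. The members' median log2 deviation from the control mean was 0.32, -0.36, 0.74, -0.34, 0.51, 0.46, 0.00 and -0.13 in knockouts 1 to 8, where the same median over all genes lay between 0.03 and 0.09. Knockouts 1 to 4 were all Y-positive, and they included both the library with the highest and the library with the lowest median deviation. Ifit1, for example, was at 351 in knockout 3 and at 114 in knockout 4. Ifi27l2b and Oasl1 were high in all of them, at 759 to 1639 for Ifi27l2b and 550.3 to 811 for Oasl1 in knockouts 1 to 4.

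**Figure D4:**
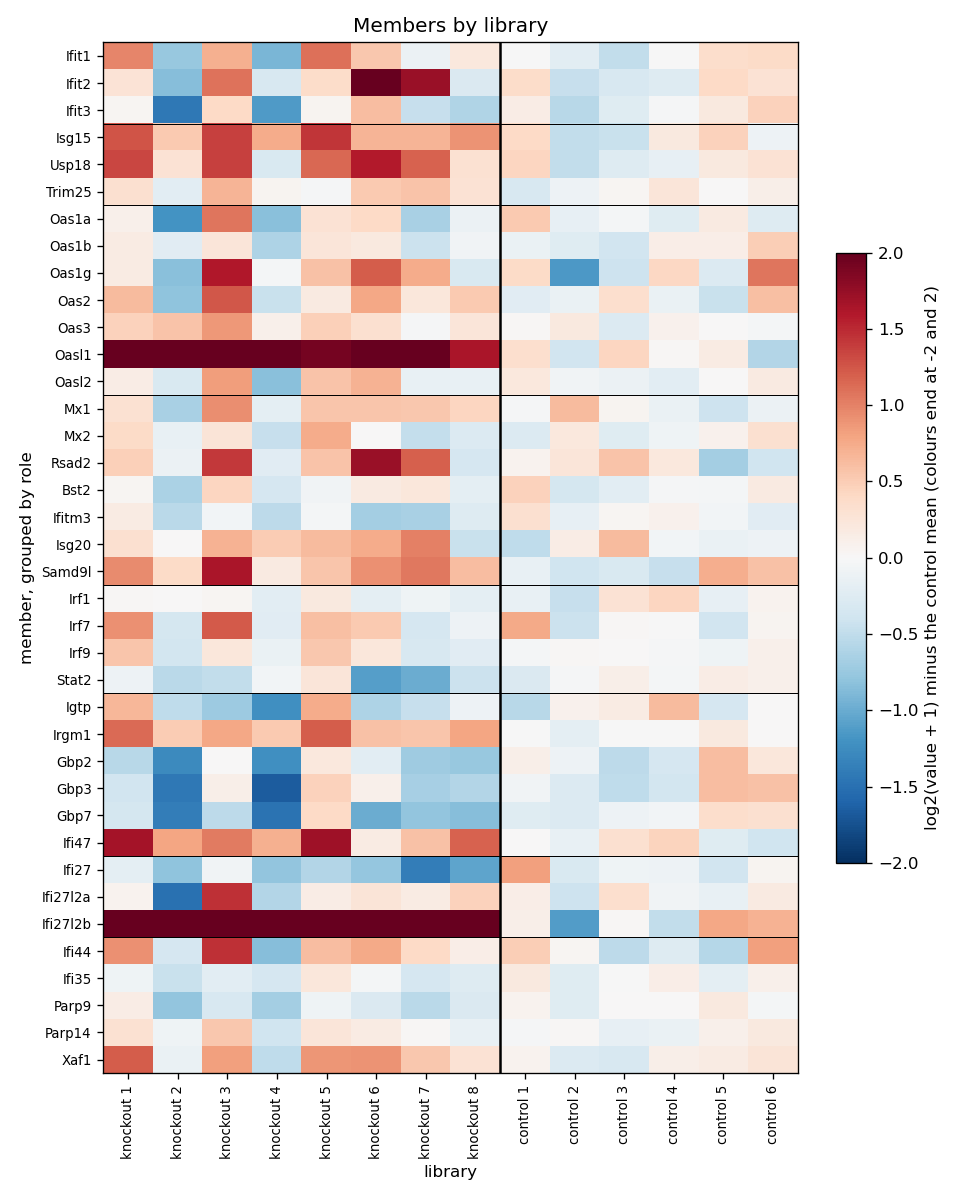
Log2(value + 1) minus the control mean (colour, limited to -2 and 2) for the 38 members, down the page by role, in each of the 8 knockouts (left) and 6 controls (right). Ifi27l2b and Oasl1 are high in every knockout, whereas most other rows are red in knockouts 1, 3, 5 and 6 and blue in knockouts 2 and 4.

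**Figure D5:**
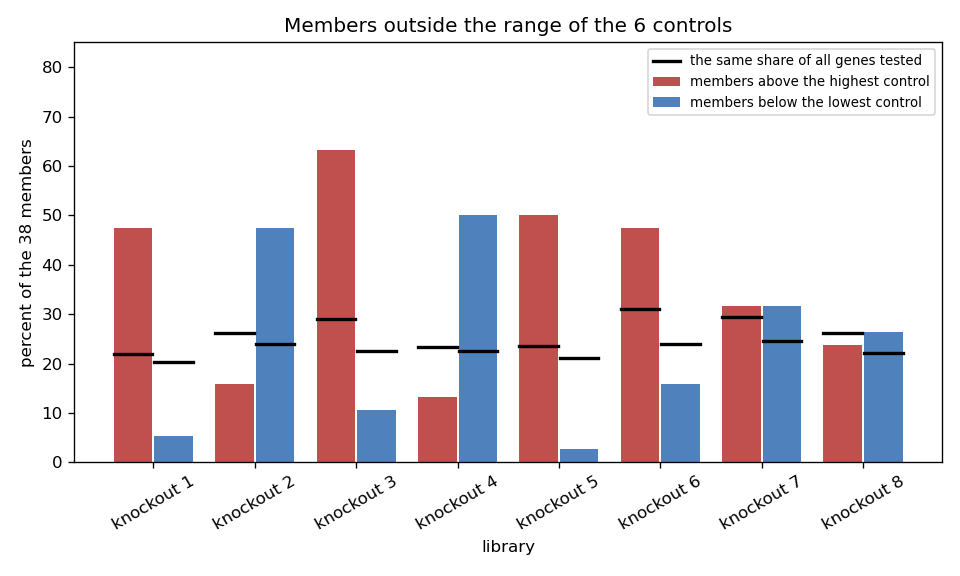
Percentage of the 38 members (vertical axis) that were above the highest control (red) or below the lowest control (blue) in each of the 8 knockouts, with black lines for the same percentage of all genes tested. In knockout 3, 63.2% of members were above and 10.5% below, and in knockout 4, 13.2% were above and 50.0% below.

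The ligands of the pathway were hardly detected. Of 10 interferon genes looked for, 9 were below the filter, with no single value above 7.25 in any library. Among them were Ifnb1, Ifng and the Ifna genes on the list, which were Ifna1, Ifna2, Ifna4 and Ifna5. Ifnk averaged 11.5 ± 4.29 in knockouts and 8.09 ± 3.29 in controls (log2 change 0.44, limma adjusted p = 0.352). Of 6 receptor subunits, 3 rose and 0 fell, where 11.5% of all genes were called higher. In Y-positive libraries alone 1 subunit was called higher, and in Xist-high libraries alone 0 were. Without knockouts 3, 6 and 7 the number was 2, with quantile normalization 2 and with the sums set equal 5. Ifnar1, a subunit of the type I receptor, averaged 582 ± 78.4 in knockouts and 395 ± 60.3 in controls (log2 change 0.56, adjusted p = 0.00254). Ifngr2, a subunit of the interferon gamma receptor, averaged 859 ± 282 in knockouts and 496 ± 83.0 in controls (log2 change 0.75, adjusted p = 0.00889). Ifnlr1, of the type III receptor, averaged 69.2 ± 37.8 in knockouts and 30.8 ± 5.61 in controls (log2 change 0.98, adjusted p = 0.0321). Its call was lost without any one of knockouts 3, 6 and 7 or controls 1, 2, 4 and 6, with adjusted p-values of 0.0534 to 0.0664, and it was 0.126 without knockouts 3, 6 and 7 together.

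Of the 5 kinases and Stat proteins, 1 fell and 0 rose. Stat3, which serves many cytokines, averaged 570.3 ± 69.2 in knockouts and 724 ± 82.0 in controls (log2 change -0.34, limma adjusted p = 0.0232), and without control 3 its adjusted p was 0.0599. With the sums set equal Stat3 had a log2 change of -0.01. Of 8 inhibitors of the pathway, Trex1 was the one called. Trex1, a DNase that removes DNA from the cytosol, averaged 197 ± 58.0 in knockouts and 78.1 ± 23.9 in controls (log2 change 1.32, SE 0.21, adjusted p = 0.000467). Of 13 nucleic acid sensors tested, 2 rose and 0 fell. Zbp1, which senses left-handed nucleic acid, had a log2 change of 0.84 (adjusted p = 0.0129). Its adjusted p was 0.0555 without knockouts 3, 6 and 7 and 0.125 in Y-positive libraries alone, 0 sensors being called higher in either, and with the sums set equal 6 were. Tlr3, the endosomal receptor of double-stranded RNA, had one of 0.64 (adjusted p = 0.0415), and its call was lost in 11 of the 14 analyses without a single library (adjusted p 0.0516 to 0.0874; all but those without knockout 4, knockout 5 or control 6).

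A further 64 genes known to answer to interferon are outside the members, 61 of which were tested. Of these 9 rose, 6 fell and 46 were not called, with a median log2 change of -0.02. Over all genes tested 11.5% were called higher and 11.0% lower, so neither count is far from the share of all genes. Slfn9 had the largest increase, with 268 ± 130.4 in knockouts and 110.4 ± 13.5 in controls (log2 change 1.11, limma adjusted p = 0.0144). Without knockouts 3, 6 and 7 Slfn9 was at 0.69 and not called (adjusted p = 0.0724), below Rtp4 at 0.99 (adjusted p = 0.0133). Rtp4, a receptor chaperone, had 529 ± 217 in knockouts and 254 ± 49.1 in controls (log2 change 0.98, adjusted p = 0.00506). Lgals3bp, a secreted glycoprotein, had 805 ± 265 in knockouts and 400.1 ± 75.1 in controls (log2 change 0.96, adjusted p = 0.00338). The other 6 that rose were Ly6e, Cmpk2, Parp10, Tor3a, Parp11 and Trim21, with log2 changes of 0.55 to 0.93.

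The 6 that fell, named after their values were seen, were H2-T23, B2m, H2-K1, Psmb9, Psmb8 and Ifitm2. B2m, H2-K1 and H2-T23 encode parts of class I antigen-presenting molecules, and Psmb8 and Psmb9 are immunoproteasome subunits. Other listed genes of antigen presentation were not called: H2-D1 had a log2 change of -0.32 (limma, adjusted p = 0.0933), Psmb10 one of -0.15, Tap1 -0.085, Tap2 -0.020, Tapbp 0.076 and Nlrc5 0.0075 (adjusted p 0.505 to 0.985). B2m averaged 11339 ± 2457 in knockouts and 18925 ± 965 in controls, with a log2 change of -0.77 (limma, adjusted p = 0.00102). H2-K1 had a log2 change of -0.75 (adjusted p = 0.016), H2-T23 one of -0.86 (adjusted p = 0.00167), Psmb8 one of -0.67 (adjusted p = 0.00875), Psmb9 one of -0.67 (adjusted p = 0.0317) and Ifitm2 one of -0.46 (adjusted p = 0.0253). With the sums set equal, 22 of the 61 rose and 2 fell, and the 2 that fell were B2m and H2-T23. In Xist-high libraries alone 0 rose and 0 fell.

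Markers of several cell types moved between the groups, and their part in the results above was not tested. Of 6 hepatocyte markers tested, 4 fell, among them Serpina1a (log2 change -1.42), Alb (-1.07) and Ttr (-0.69), and the summed values were 382061 to 800961 in knockouts and 804324 to 1002330 in controls. With the sums set equal 2 hepatocyte markers fell, and with quantile normalization 1 did. In Y-positive libraries alone 2 fell, and in Xist-high libraries alone 0 did. Of 11 Kupffer cell markers 0 were called, with sums of 7298 to 18752 in knockouts and 10884 to 13884 in controls. Of 9 markers of monocytes and recruited macrophages, Spp1 (1.17), Trem2 (1.09) and Ccr2 (0.88) rose and 0 fell, with sums of 2078 to 7025 in knockouts and 2331 to 3306 in controls. In either sex class alone 0 of these 9 were called, and without knockouts 3, 6 and 7 Trem2 had an adjusted p of 0.0825. Of 10 endothelial markers 5 fell, the largest changes being in Oit3 (-0.55), Clec4g (-0.54) and Fcgr2b (-0.42), with sums of 3915 to 6626 in knockouts and 5788 to 7123 in controls. With the sums set equal, and in Xist-high libraries alone, 0 endothelial markers were called. The call of Oit3 was lost without any one of knockouts 3, 4 and 7 or controls 1, 2, 4 and 6 (limma, adjusted p 0.0507 to 0.0682), and that of Fcgr2b without control 4 or control 6 (0.0537 and 0.0598). Of 7 cholangiocyte markers, Sox9 (1.70), Epcam (1.31) and Spp1, which is also in the macrophage list, rose and 0 fell, with sums of 1721 to 4040 in knockouts and 1095 to 2030 in controls. The call of Epcam was lost without any one of knockouts 3, 6, 7 and 8 or controls 1, 2, 4 and 5 (adjusted p 0.0509 to 0.1002).

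Of 10 stellate cell markers, Ecm1 and Colec11 fell and 0 rose, with sums of 5215 to 9114 in knockouts and 7670 to 9818 in controls. With the sums set equal, and with quantile normalization, 0 stellate cell markers fell. The call of Ecm1 was lost without any one of knockouts 3, 4, 6 and 7 or controls 2, 3, 4 and 6 (limma, adjusted p 0.0521 to 0.0913), and that of Colec11 without any one of knockouts 4, 6 and 7 or controls 4 and 6 (0.0523 to 0.0848). The markers of T and NK cells (9 tested), B cells (6), plasmacytoid dendritic cells (4, Bst2 among them) and neutrophils (3) gave 0 calls. Their sums were 160 to 218 in knockouts and 165 to 215 in controls for T and NK cells, and 97.5 to 216 in knockouts and 111 to 253 in controls for B cells. They were 1289 to 2258 in knockouts and 1430 to 2305 in controls for plasmacytoid dendritic cells, and 107 to 237 in knockouts and 67.2 to 131 in controls for neutrophils. No listed marker was at 0 in all libraries.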

How the data were processed

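Liver RNA of 8 knockout and 6 control libraries was compared. Per the labels' protocols, RNA was extracted with Trizol and turned into stranded libraries by Takara's SMARTer Pico chemistry. Per the submitters' processing notes, kallisto, sleuth and mm10 were used; versions, annotation and strand setting are not given in the sources used here. The signal values deposited by the authors were normalised estimated counts per gene and library, as read from the values: 27.9% to 29.8% of low values per library were whole multiples of 1 read (within 0.02 of a read, under 200 reads). The p-value and q-value columns deposited by the authors covered 27865 genes, and their deposited change was a natural log with the sign of control minus knockout, turned here to log2 of knockout over control. The table's 75859 lines were reduced to 54446 genes.

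The planned log-scale test was used because the values were not raw counts: limma 3.58.1 (R 4.3.3) fitted to log2(value + 1) without covariates, prior variance following the mean, on genes that had a value of 10 or higher in 6 or more libraries, with Benjamini-Hochberg adjustment over all 23554 genes tested. Genes were called at an adjusted p up to 0.05. A fold change on this scale understates the change of low genes, and shallow libraries are the least precise. Simulated data with known changes were put through the same steps as a test.

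The members and all lists were chosen with earlier results of these data known. Named genes were all members, Mettl3 and, of each pathway or marker list, up to 3 called genes with the largest change, or the gene with the smallest p. A gene that counts towards the list totals is not reported here. Alternatives were other pseudocounts, thresholds, filters and scalings, sex class or depth as covariate, each class alone, each library left out, knockouts 3, 6 and 7 left out, the replicate number as a block and the authors' q-value. The pathway and marker lists were put through these alternatives after seeing the data. Positions are those of GENCODE M21 on GRCm38, and promoters those of RefSeq on GRCm38.p6.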

Additional observations from a re-analysis of the deposited data

Results flagged for a closer look

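In 5 of the 78 groups examined (38 members and Mettl3, in knockouts and in controls) 1 library stood apart from the rest of its group, where chance gives about 1 in 20. Knockout 5 had a Gbp7 value of 532 with the next knockout at 314, and knockout 3 had an Ifi27l2a value of 209 with the next knockout at 105. Control 1 had an Irf7 value of 938 with the next control at 573, and an Ifi27 value of 2050.5 with the next control at 1197. Control 2 had an Mx1 value of 37.3 with the next control at 24.5. Of these genes Gbp7 and Ifi27 were called, and without the library that stood apart the log2 change of Ifi27 was -0.54 (limma, adjusted p = 0.0586), while that of Gbp7 was -0.91 with an adjusted p of 0.0029.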

How the results depend on the processing

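The number of members called higher was 7 as reported and 5 to 8 with a single library left out. It was 13 with equal sums outside ribosomal RNA and 2 in Xist-high libraries alone. Members called lower were 2 as reported, 1 to 4 with a single library left out, 1 with quantile normalization and 1 without knockouts 3, 6 and 7. They were 0 at an adjusted p of at most 0.01, 0 with no filter, 0 with equal sums, and 0 in either sex class alone. All genes called higher were 2697 as reported, 1311 at 0.01, 7833 with equal sums, 1740 in Y-positive libraries and 172 in the Xist-high ones. All genes called lower were 2583 as reported, 1358 at 0.01, 866 with equal sums and 47 in Xist-high libraries. Interferon-stimulated genes outside the members called higher were 9 as reported, 5 at 0.01, 22 with equal sums, 0 in Xist-high libraries and 5 without knockouts 3, 6 and 7, and those called lower were 6 as reported, 3 at 0.01, 2 with equal sums, 3 with quantile normalization and 0 in Xist-high libraries. The cause of these moves was not tested, except that each sex class alone has fewer libraries and equal sums shift every gene.

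Over all alternatives of the members, 911 values kept direction and side of the threshold, 46 lost a call, 15 gained one and 46 changed sign; no called member changed sign, and Ifi27l2b and Oasl1 were called in all 27. Changes of sign, all in members that were not called, were as follows on the log2 scale. With equal sums Ifit3 was at 0.025, Oas1a 0.21, Oas1b 0.27, Bst2 0.29, Ifitm3 0.015, Irf1 0.28, Igtp 0.055 and Ifi35 0.15, and outside the members Ube2l6 was at 0.056. With quantile normalization Oasl2 was at -0.0054, Mx2 -0.075, Bst2 0.090 and Ifi27l2a -0.048. Without knockouts 3, 6 and 7 Ifit2 was at -0.17, Oas1g -0.087, Oasl2 -0.11, Ifi27l2a -0.28 and Parp14 -0.014. In Y-positive libraries Oas1b was at 0.049, Mx1 -0.035 and Ifi27l2a -0.13. In Xist-high libraries Oas1a was at 0.015, Mx2 -0.20, Igtp 0.050 and Parp14 -0.081. Mx2 was at -0.014 with sex class and -0.021 with depth as covariate, and Ifi27l2a at -0.024 with depth. With a single library left out, Oas1a ran from -0.29 to 0.033, Oas1b from -0.14 to 0.037, Oasl2 from -0.0030 to 0.24, Mx2 from -0.10 to 0.075, Bst2 from -0.12 to 0.045, Irf1 from -0.15 to 0.029, Irf9 from -0.0055 to 0.13 and Ifi27l2a from -0.14 to 0.28.

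Other calls were lost as well. With quantile normalization the adjusted p of Ifi27 was 0.0536. With no filter it was 0.0761 for Usp18, 0.0601 for Samd9l, 0.0806 for Gbp7 and 0.0590 for Ifi27. With depth as covariate it was 0.0830 for Usp18, 0.0676 for Samd9l and 0.0711 for Ifi27. Gbp2 passed with sex class (0.0454) and with depth (0.0478) as covariate, and Trim25 with quantile normalization (0.0351). Taking the 250 bases before the start as the window gave the response element in 14 of 28 members and the gamma-activated site in 7.

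The replicate numbers were also used as a block. Same-numbered knockouts and controls deviated together with correlations of 0.228, 0.225, 0.0707, 0.191, 0.142 and 0.158, and of the 6 controls those numbered 2 and 4 correlated best with their own number's knockout, so the samples were taken to share only a number. The block gave 6 members higher and 2 lower, and 2037 genes higher and 1917 lower. Samd9l had an adjusted p of 0.0527 with the block, Oas1b a log2 change of 1.9e-05 and Ifi27l2a one of -0.022.

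Low values in the shallow Xist-high libraries are the least precise. Changes larger than their SE could also go without a call, as in Stat2 (log2 change -0.43, SE 0.18). Among the members the smallest absolute log2 change called was 0.71 and the largest not called was 0.59.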

Other observations

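Genes beside the called members did not follow a single pattern. Trim7, on the near side of Irgm1, averaged 1363 in knockouts and 609 in controls (log2 change 1.17, limma adjusted p = 0.000151). Tuba8, beside Usp18, averaged 290.3 in knockouts and 82.5 in controls (log2 change 1.62, adjusted p = 0.00809), while Slc6a13 on the other side of Usp18 had a log2 change of -0.50 (adjusted p = 0.00584). Agrn and AW011738, on either side of Isg15, were not called, with log2 changes of 0.31 (adjusted p = 0.158) and -0.19 (adjusted p = 0.632). Tgtp2, a GTPase gene beside Ifi47, had a log2 change of -0.48 that was not called (adjusted p = 0.368).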
